A study of Mus musculus with 4 samples.

Results

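Plasmacytoid dendritic cells were identified in single-cell RNA sequencing libraries of brain leukocytes, sorted by CD45.2 from mice with a GL261 tumour (GL261 is a mouse glioma line that was implanted into the brain). A cell barcode was counted as a member when it held at least 200 detected genes, at most 10% mitochondrial UMIs (unique molecular identifiers, counts of captured RNA molecules), at least 1 UMI of Siglech and at least 2 UMIs of Ccr9, Cox6a2, Klk1 and Pacsin1 together. Members also held no UMI of the microglial genes P2ry12, Tmem119 and Sall1, and at most 1 UMI of the T cell genes Cd3d, Cd3e and Cd3g. The rule found 143 cells among 26014 filtered cells and 28661 deposited barcodes. Of these, 66 came from the untreated WT library, 63 from the untreated KO library, 6 from the anti-PD1 WT library and 8 from the anti-PD1 KO library.

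Each of the 4 groups was 1 library made from pooled cell suspensions, and the sources used here do not give how many mice were pooled. WT mice had an intact type I interferon receptor. KO stands for IFNaR-/- mice, which lack that receptor in all cells; the labels do not name the receptor chain that was removed. Both untreated groups were sorted at day 20 after tumour implantation. The other WT and KO groups received the checkpoint antibody anti-PD1 into the peritoneum, 200 ug per mouse on days 7, 11, 15 and 19, and were sorted at day 25 with CD3-positive and CD3-negative cells combined in equal parts. All animals carried a GL261 tumour, so no group shows these cells in a tumour-free brain. With 1 library per group no test between genotypes was possible. Intervals below are 95% intervals of counting error only, and differences between libraries cannot be told apart from differences between the pools, sorts and preparations behind them.

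Plasmacytoid dendritic cells are rare blood and lymphoid cells that sense viral nucleic acids in endosomes through the Toll-like receptors TLR7 and TLR9 and can release large amounts of type I interferon. The released interferon binds the receptor IFNAR on many cells, the producing cell included, and the kinases JAK1 and TYK2 then activate a complex with STAT2 and IRF9 that switches on interferon-stimulated genes. The E protein TCF4 maintains the lineage, and the surface proteins SIGLEC-H, BST2 and CCR9 are commonly used to recognise it in mice.

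The untreated member cells were deeply covered, and their share of the sort was higher in the KO library. Members held a median of 10459 UMIs in WT (792 to 30102) and 10809 in KO (504 to 40246), against medians of 7305.5 and 9534 for all filtered cells. They made up 1.25% of filtered cells in WT (66 of 5264, exact Clopper-Pearson interval 0.971% to 1.59%) and 2.24% in KO (63 of 2810, 1.73% to 2.86%), a 1.79-fold higher share in KO (1.25 to 2.56). Among cells with no Cd3 UMI the shares were 1.66% and 3.17%, a 1.90-fold higher share in KO. The direction turned with the mitochondrial limit. The members had a median of 3.88% mitochondrial UMIs in WT and 6.23% in KO, and 52 of the 63 KO cells but 14 of the 66 WT cells exceeded 5%. With at least 500 genes and at most 5% mitochondrial UMIs, 52 WT cells (1.22%) and 10 KO cells (0.543%) remained, and the log2 ratio of shares changed from 0.84 to -1.17 (-2.31 to -0.18). Among those 10 KO cells were the ones with 40246, 16494 and 15657 UMIs, which held 28, 4 and 2 marker UMIs of the rule. The median over all KO members was 41 marker UMIs. The part of mitochondrial content in the difference of shares was not tested. A share also depends on every other cell type in the sort.

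Lineage markers were found in the untreated members of both genotypes. Siglech, a sialic acid-binding receptor, had a median of 17 UMIs per cell in WT (1 to 59) and 28 in KO (1 to 67). Ccr9, a homing receptor, had medians of 18.5 (0 to 67) and 15 (0 to 82). Cox6a2, a subunit of cytochrome c oxidase otherwise known from muscle, had a median of 9 in both libraries. Klk1, a kallikrein protease, was less even: it was found in 36 of 66 WT and 30 of 63 KO cells, with up to 89 and 75 UMIs in a cell. These genes chose the members, so their presence is no finding. Tcf4, which the rule did not use, was found in 64 of 66 WT cells and 61 of 63 KO cells, with medians of 22 and 26 UMIs. In T cells, here barcodes with at least 3 Cd3 UMIs, at most 1 Lyz2 UMI and no Siglech, which should lack the plasmacytoid programme, Tcf4 was found in 13.6% of WT and 15.2% of KO cells at median depths of 8886 and 9519.5 UMIs. At 10 or more UMIs, Tcf4 was found in 57 of the 66 WT and 53 of the 63 KO members. The label held less well after anti-PD1, where 1 of 6 WT and 2 of 8 KO members reached 10 Tcf4 UMIs.

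**Figure D1:**
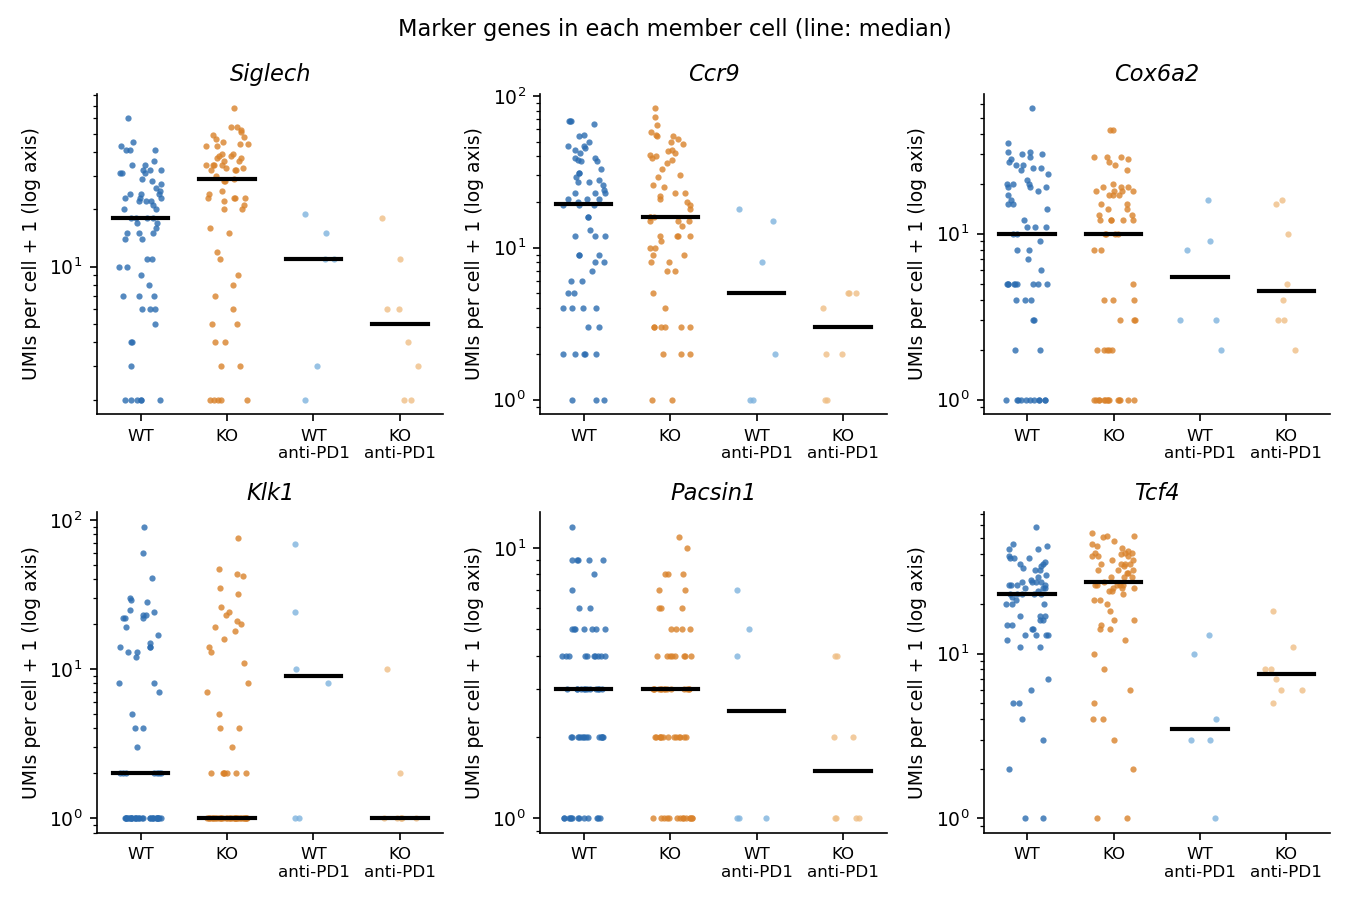
UMIs per cell plus 1, on a log axis, for 5 genes of the membership rule and for Tcf4 in every member cell of the 4 libraries (points) with the median (line). Tcf4 medians were 22 and 26 UMIs in the untreated WT and KO members and 2.5 and 6.5 in the anti-PD1 WT and KO members.

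Values near the limits of the rule were as follows. In the untreated libraries, 2 WT and 5 KO members sat at the minimum of 2 marker UMIs, with median Tcf4 of 9.5 and 2, and 5 WT and 8 KO barcodes fell 1 marker UMI short, with median Tcf4 of 10 and 1. At exactly 1 Siglech UMI were 6 WT and 5 KO members, whose median depths were 20347 and 590 UMIs. Barcodes with enough marker UMIs but no Siglech numbered 38 and 29, and their median Tcf4 was 1 UMI in both libraries. Barcodes that met every condition except for 3 or more microglial UMIs numbered 58 in WT and 3 in KO, with median Tcf4 of 4 and 2 UMIs.

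A few untreated members carried RNA typical of other cells, and the genes concerned are given with that fact. In KO, 3 cells with 40246, 14059 and 13164 UMIs held 1262 of the 1604 UMIs of the 20-gene macrophage and monocyte list (78.7%); the remaining KO members held a median of 5 such UMIs and at most 15, and no WT member held 50. The list made up 455 CPM in WT and 2451 CPM in KO (CPM, counts scaled to a common total of UMIs, as is usual for sequencing libraries). Levels of these genes therefore stand for few cells: Lyz2 (lysozyme) had 19 UMIs in WT and 322 in KO, Apoe 34 and 432, Chil3 0 and 131, and Fn1 1 and 75. In WT, 2 cells with 26958 and 26742 UMIs held 68 of the 69 UMIs of Xcr1, the chemokine receptor of type 1 conventional dendritic cells (cDC1), together with 4 and 1 UMIs of Tcf4. Another WT cell had 30102 UMIs, 1 of Siglech and 3 of Tcf4. Any Cd3 UMI was found in 14 of 66 WT members and 1 of 63 KO members. Leaving out cells above 2 times the median depth, with 3 or more C1q UMIs, 5 or more Lyz2 UMIs or any Cd3 UMI kept 50 WT and 57 KO members. Values without these possible doublets are given below where a call of 2-fold is lost or a named result rests on such cells. Cell barcodes that also occur in another library numbered 5 in untreated WT and 4 in untreated KO, and none was a member.

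**Figure D2:**
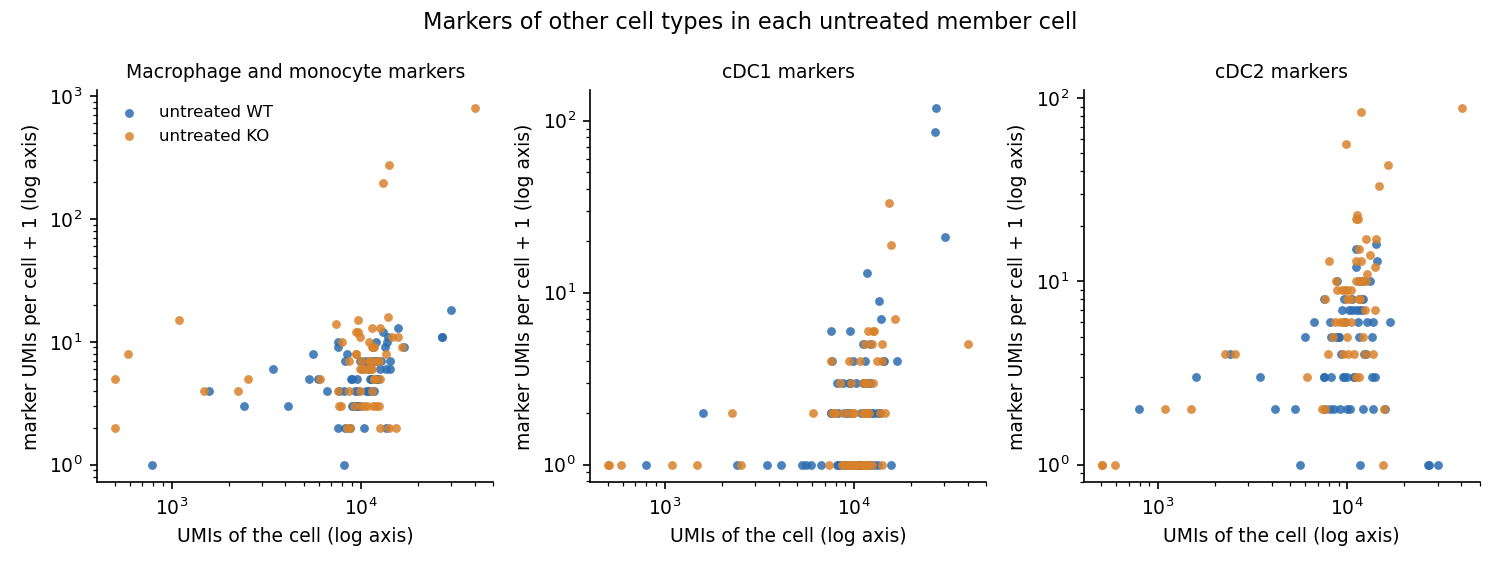
UMIs per cell plus 1 of the macrophage and monocyte, cDC1 and cDC2 marker lists (vertical, log axis) against the UMIs of the cell (horizontal, log axis) for untreated WT and KO members (points). The 3 highest KO cells of the first panel held 1262 macrophage-list UMIs, while 2 WT cells with 26958 and 26742 UMIs were highest for cDC1 markers.

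Most measured genes of the untreated KO and WT members lay within 2-fold of each other. UMIs were summed over the members of a library, scaled to CPM of that sum (707306 UMIs in WT, 654467 in KO), and compared for the 4139 genes whose WT and KO sums together reached 50 UMIs. The log2 ratio of KO over WT, with a pseudocount of 0.5 UMI, had a median of 0.05. At least 2-fold lower in KO were 144 genes (3.48%), and at least 2-fold higher were 124 genes (3.0%). With possible doublets left out, 122 and 94 of 3483 genes passed, of which 99 and 57 were among those of the full set.

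**Figure D3:**
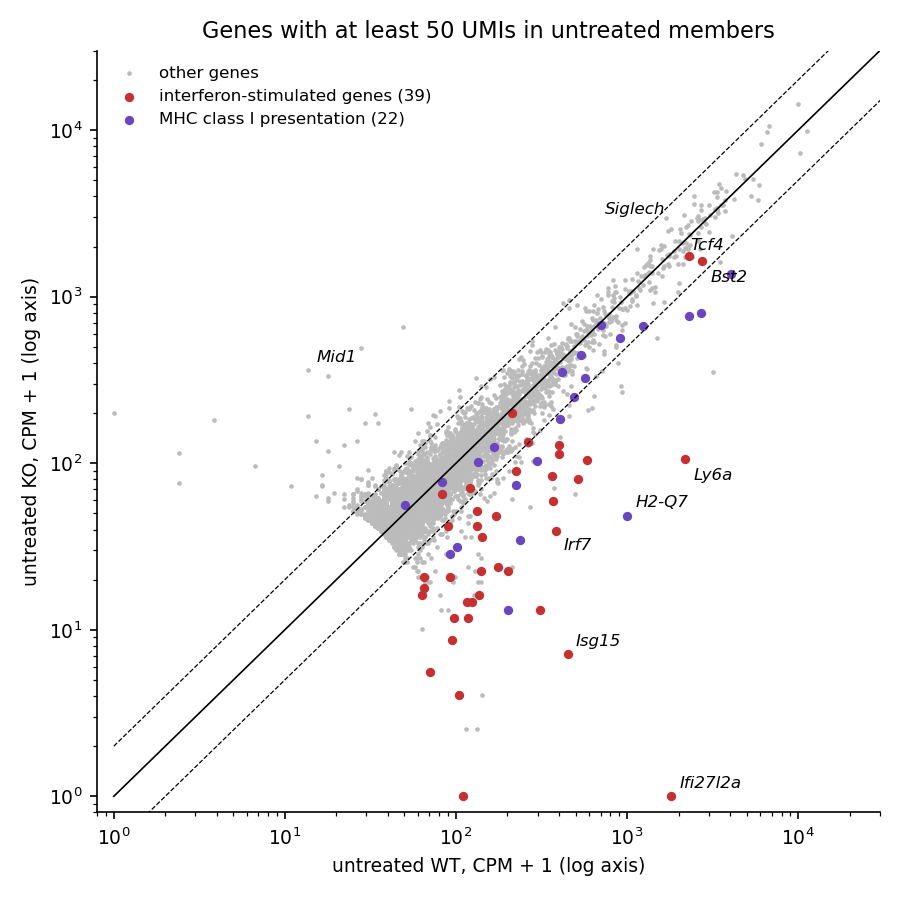
CPM plus 1 in untreated KO (vertical, log axis) against untreated WT (horizontal, log axis) for the 4139 measured genes; points are genes, the solid line marks equality and the dashed lines a 2-fold difference. All 39 measured interferon-stimulated genes lie below the line of equality and 33 of them below the lower dashed line, while Siglech and Tcf4 lie near the diagonal.

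Interferon-stimulated genes were lower in KO members as a group. The list held 78 genes, of which 75 matched the feature lists by symbol and 39 reached 50 UMIs in the pair. All 39 had a lower level in KO, 33 of them at least 2-fold, against 3.48% of all genes. Their median log2 ratio was -2.48 (median of the genes' interval bounds, -3.18 to -1.88), against 0.05 over all genes. It was -2.75 with possible doublets left out and -1.62 at the 5% mitochondrial limit with its 10 KO cells. Because a gene could reach the minimum through WT alone (20 of the 39 had under 25 UMIs in KO), the summed list is also given: it made up 11930 UMIs in WT and 3425 in KO, 3.22-fold lower in CPM in KO. A total of 36 listed genes stayed under the minimum, among them Ifit1 with 2 and 1 UMIs and Ifit3 with 2 and 0.

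A larger share of listed genes than of all genes carried a response motif at the promoter. The core of the interferon-stimulated response element, which the complex with STAT2 and IRF9 binds, was searched as GAAA, any 2 bases and GAAA, on both strands (TTTC, any 2 bases and TTTC on the other, overlaps allowed) from 250 bases before to 50 bases after the transcription start in RefSeq windows of GRCm38.p6. It occurred in 34 of 60 listed genes with a window (56.7%), against 1079 of 27025 genes overall (3.99%; 3.44% of all windows). Among listed genes at least 2-fold lower in KO it occurred in 14 of the 25 with a window (56%), near the share of the whole list. The list was made of interferon-stimulated genes, so its higher share than all genes is no finding about these cells. The 4 windows below belong to the genes with the lowest KO ratios that hold the motif, with capitals marking the matches. Isg15 (chr4:156200769-156201068, minus strand) has 3 overlapping matches, and Rsad2 (chr12:26456403-26456702, minus strand), Slfn5 (chr11:82951852-82952151, plus strand) and Trim30d (chr7:104507800-104508099, minus strand) have 1 each. A match describes letters only and is not a measured binding site.

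Isg15: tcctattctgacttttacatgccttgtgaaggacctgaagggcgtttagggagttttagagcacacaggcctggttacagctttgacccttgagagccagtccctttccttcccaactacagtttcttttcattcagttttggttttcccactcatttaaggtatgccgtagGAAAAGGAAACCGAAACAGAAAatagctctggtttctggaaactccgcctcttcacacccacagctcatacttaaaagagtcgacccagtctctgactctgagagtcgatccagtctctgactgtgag
Rsad2: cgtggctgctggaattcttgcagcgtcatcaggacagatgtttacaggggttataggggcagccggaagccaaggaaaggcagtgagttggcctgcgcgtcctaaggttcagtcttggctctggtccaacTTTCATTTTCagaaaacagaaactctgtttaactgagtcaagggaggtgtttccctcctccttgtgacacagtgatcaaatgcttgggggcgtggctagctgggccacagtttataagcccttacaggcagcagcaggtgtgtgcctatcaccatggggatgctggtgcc
Slfn5: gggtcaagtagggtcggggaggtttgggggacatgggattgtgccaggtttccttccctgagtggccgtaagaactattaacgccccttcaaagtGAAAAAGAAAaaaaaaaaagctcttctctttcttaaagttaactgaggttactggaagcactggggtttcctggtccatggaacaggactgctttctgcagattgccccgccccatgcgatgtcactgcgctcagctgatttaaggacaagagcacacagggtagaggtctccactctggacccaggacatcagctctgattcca
Trim30d: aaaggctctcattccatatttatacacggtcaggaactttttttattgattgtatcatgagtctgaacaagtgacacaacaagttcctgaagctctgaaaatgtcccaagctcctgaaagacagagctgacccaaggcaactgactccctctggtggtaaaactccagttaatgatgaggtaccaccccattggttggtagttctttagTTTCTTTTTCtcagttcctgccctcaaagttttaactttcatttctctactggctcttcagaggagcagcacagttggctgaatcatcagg

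Single members also separated by this list. Interferon-stimulated genes made up a median of 1.54% of a WT cell's UMIs (lowest 0.457%, highest 5.02%) and 0.504% of a KO cell's (0% to 1.05%). Of the 66 WT cells, 56 lay above the highest KO cell. No KO cell reached the WT median, and 19 of the 63 lay under the lowest WT cell. After thinning every cell to 1000 UMIs (65 and 60 cells), the medians were 1.6% and 0.5%. The rank correlation of the percentage with total UMIs was 0.04 in both libraries (66 and 63 cells, given as a description; both measures come from the same UMIs). In WT the percentage went with Ly6c2 per UMI (rho 0.46) and against Ccr9 (rho -0.36), the 2 largest values among the measures tried. In KO the same 2 correlations were 0.02 and 0.07. The largest in KO was with Cox6a2 (rho 0.36), which was at -0.13 in WT. These genes were chosen after their values were seen, and the differences between libraries were not tested.

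**Figure D4:**
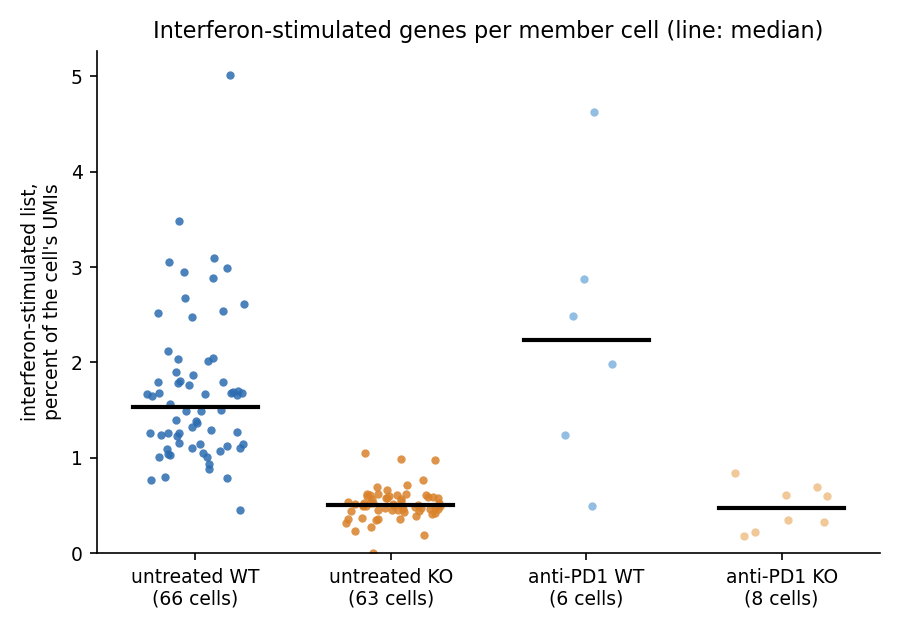
Percent of each member cell's UMIs that came from the interferon-stimulated list (vertical) in the 4 libraries (points, 1 per cell; line, median). Untreated WT cells had a median of 1.54% and untreated KO cells 0.504%, and 56 of 66 WT cells exceeded the highest KO cell.

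Among the listed interferon-stimulated genes, the strongest differences were in those nearly silent in KO. Ifi27l2a, an interferon-induced membrane protein gene, had 1281 UMIs in 56 of 66 WT cells (median 13, highest 114) and 0 UMIs in all 63 KO cells. That is at least 395-fold lower against a floor of 3 counts over the KO group. Ifi44 had 77 UMIs in 30 WT cells and 0 in KO, at least 23.7-fold lower. Isg15, a ubiquitin-like modifier, had 317 UMIs in 44 WT cells and 4 in 2 KO cells, 73.3-fold lower (28.4 to 271). Its highest WT cell held 38 UMIs and its highest KO cell 3. Both KO cells with Isg15 are among the 3 with macrophage RNA, and without possible doublets its log2 ratio, which then depends on the pseudocount, was -9.12 instead of -6.03. Rsad2 (viperin) had 73 UMIs, all in 17 WT cells, against 2 in 1 KO cell, 33.8-fold lower (9.02 to 284), and Slfn5 219 against 8, 25.3-fold lower (12.6 to 59.4). The 5 highest cells held 72.6% of the Rsad2 UMIs of WT, so this gene was carried by few cells. Ly6a, which encodes the surface protein Sca-1, was broad instead: 1538 UMIs in 60 of 66 WT cells (median 21.5) against 69 in 15 of 63 KO cells (median 0), 20.6-fold lower (16.2 to 26.6). Ly6 family genes are similar in sequence, so single values of Ly6a and Ly6c2 depend on how shared reads were counted.

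Other listed genes kept some expression in KO. Irf7, the regulator that amplifies interferon gene transcription in these cells, had 270 UMIs in 52 WT cells and 25 in 21 KO cells, 9.99-fold lower (6.62 to 15.7), with at most 3 UMIs in any KO cell. Usp18, which dampens receptor signalling, had 66 and 5 UMIs (12.2-fold lower), Ifit2 49 and 3 (15.1-fold) and Parp14 82 and 7 (10.8-fold). Least lower were Bst2 (tetherin), with 1945 and 1067 UMIs and medians of 31.5 and 18 per cell, Ly6e with 1618 and 1154, Tor3a with 58 and 42, and Trim25 with 150 and 131, all under 2-fold. Bst2 was found in 66 of 66 WT and 62 of 63 KO cells, so its transcript was detected in nearly every cell of both genotypes.

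Interferon genes themselves were nearly absent from the counts. Of the 20 type I and III interferon genes, 19 had 0 UMIs in the untreated members, Ifnb1 and every matched Ifna gene included, and Ifnl2 had 3 UMIs in 3 WT cells. A count of 0 allows a share of up to 4.55% of WT and 4.76% of KO cells with a UMI, and levels up to 4.24 and 4.58 CPM. Receptor transcripts were found in both genotypes. Ifnar1 had 196 UMIs in WT (55 cells, median 2) and 353 in KO (56 cells, median 4), 1.95-fold higher (1.63 to 2.33), and Ifnar2 had 222 and 145, 1.42-fold lower in KO (1.14 to 1.76). The counts do not tell which exons were read, so they do not check the deletion. Of 18 measured receptor and JAK-STAT genes the median log2 ratio was -0.06, and 3 were at least 2-fold lower, against 3.48% of all genes. Each of the 3 is also on the interferon-stimulated list, among them Usp18 and Irf9 (93 and 33 UMIs, 2.61-fold, 1.74 to 4.01, log2 -0.52 at the 5% mitochondrial limit). Stat2, which acts in the same complex as Irf9, had 187 and 87 UMIs, a log2 ratio of -0.99. Jak1, Tyk2, Ifngr1 and Ifngr2 lay between -0.05 and 0.32.

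Genes of nucleic acid sensing mostly lay within 2-fold. Of 29 endosomal Toll-like receptor pathway genes 19 were measured, with a median of 0.14, and 2 were at least 2-fold lower in KO, against 3.48% of all genes. They were Irf7, also on the interferon-stimulated list, and the receptor gene Tlr7 itself (97 and 42 UMIs in 40 and 23 cells, 2.14-fold, 1.47 to 3.15). Unc93b1, which delivers the receptors to endosomes, had 481 and 421 UMIs, Myd88 43 and 44, and Slc15a4, a lysosomal transporter needed for this response, 93 and 131.

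Transcripts of MHC class I presentation genes were mostly lower in KO members. All 23 listed genes matched, 22 were measured, 21 had a lower level in KO, against 45.3% of all genes, and 11 were at least 2-fold lower, against 3.48% (median -1.05, -1.36 to -0.78). A gene could reach the minimum through WT alone (4 of the 22 had under 25 UMIs in KO), so the summed list is also given. It made up 11969 UMIs in WT and 4630 in KO, 2.39-fold lower in CPM in KO. The class I heavy chain H2-K1 had 1926 UMIs in WT (median 28.5 per cell) and 525 in KO (median 5), 3.39-fold lower (3.08 to 3.75), although it was found in 65 of 66 and 62 of 63 cells. H2-Q7 had 711 and 31 UMIs in 62 and 8 cells, 21.2-fold lower (14.8 to 31.5), and H2-Q6 and H2-Q4 had 141 and 8, and 166 and 22. Reads of these Q region genes can be shared among near-identical copies, so their single values are uncertain. B2m, the common light chain, had 2847 and 895 UMIs (log2 -1.56), and the peptide transporter subunit Tap1 210 and 67 (-1.53), but Tap2 had 95 and 66 (-0.41) and the chaperone Calr 499 and 442 (-0.06).

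Transcripts of MHC class II genes were less clear. All 9 measured genes had a lower level in KO (median -0.61), against 45.3% of all genes. Only H2-Eb1 was at least 2-fold lower (1061 and 371 UMIs, 2.65-fold, 2.35 to 2.99), against 3.48% of all genes. The 5 highest cells held 54.0% of the list's UMIs in WT and 54.1% in KO. With at least 2 Siglech and 3 marker UMIs required, the median was -0.13 and H2-Eb1 was at -0.17, and with possible doublets left out they were -0.32 and -0.69. At the 5% mitochondrial limit, with 10 KO cells, the direction turned: the median was 0.46, with 7 of 9 genes higher in KO, and H2-Eb1 was at -0.05. Genes linked to interferon gamma, 7 of 23 measured, had a median of -0.58. Of the 7, the immunity-related GTPases Irgm1 (79 and 23 UMIs) and Iigp1 (124 and 49) were at least 2-fold lower, against 3.48% of all genes. With possible doublets left out, Iigp1 was at a log2 ratio of -0.90, under 2-fold.

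Most lineage identity genes lay within 2-fold. Of 40 identity genes outside the rule, all measured, the median log2 ratio was -0.09 (-0.41 to 0.15), 4 were at least 2-fold lower in KO (3.48% of all genes were) and 1 was at least 2-fold higher (3.0% of all genes were). At the 5% mitochondrial limit, with 10 KO cells, the median was -0.92, and 18 of 39 measured identity genes were at least 2-fold lower. Those 10 cells included the KO cell with 794 macrophage-list UMIs and 1 with 2 marker UMIs and 1 Tcf4 UMI. How far such cells shaped the values at this limit was not tested. Among regulators, Irf8 had 2380 and 2161 UMIs (medians 36.5 and 34 per cell), Runx2 381 and 369, Tcf4 1437 and 1658, Bcl11a 403 and 558, Zeb2 345 and 304, and Spib 234 and 146. Of these, Spib differed most towards lower KO levels, 1.48-fold (1.20 to 1.84), and Bcl11a most towards higher, 1.5-fold (1.31 to 1.71). The 4 lower genes were surface proteins and a cilium gene. Ly6c2, a GPI-anchored surface protein also common on monocytes, had 2242 UMIs in 62 WT cells (median 25) and 231 in 39 KO cells (median 2), 8.98-fold lower (7.84 to 10.3). Cd4, the co-receptor that mouse plasmacytoid cells carry in part, had 149 UMIs in 34 WT cells and 15 in 10 KO cells, 9.19-fold lower (5.40 to 16.8). Klra17 (98 and 45) and Rpgrip1 (505 and 233) were 2.02-fold and 2.01-fold lower, close to the limit; with every cell weighted alike, Klra17 was at a log2 ratio of -0.51. The lectin gene Cd209d was 2.24-fold higher in KO (54 and 112 UMIs, 13 and 24 cells), and at a log2 ratio of 0.82 with at least 2 Siglech and 3 marker UMIs required.

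The co-receptor Cd8 went the same way as Cd4. Cd8a had 199 UMIs in 38 WT cells and 67 in 24 KO cells, and Cd8b1 190 in 34 and 35 in 18, 2.75-fold (2.07 to 3.68) and 5.02-fold lower (3.49 to 7.43). Both belong to the T cell marker list, and Cd3 UMIs were also more frequent among WT members (14 of 66, at most 1 each by the rule). With every Cd3-positive cell and the other possible doublets left out, the log2 ratios were -1.39 and -2.32, against -1.45 and -2.31 before, and Cd4 was at -2.98 against -3.16.

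Of 21 measured lineage transcription factors 2 were at least 2-fold higher in KO, against 3.0% of all genes, and none was at least 2-fold lower, against 3.48%; counts this small are no result about the list. Irf4, a factor of type 2 conventional dendritic cells (cDC2) and activated lymphocytes, had 10 UMIs in 8 WT cells and 88 in 29 KO cells, 9.51-fold higher (4.93 to 20.5), with at most 2 UMIs in a WT cell and 9 in a KO cell. Mef2c, a lineage factor of lymphoid and dendritic cells, had 300 and 599 UMIs (medians 4 and 9), 2.16-fold higher (1.88 to 2.49); its log2 ratio of 1.11 was 0.97 with possible doublets left out, 0.99 with at least 2 Siglech and 3 marker UMIs and 0.52 at the 5% mitochondrial limit, each under 2-fold. The inhibitors of E proteins Id2 and Id3 had 193 and 169, and 205 and 144 UMIs.

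Part of the KO members held C-type lectin transcripts of the cDC2 lineage. Cd209a (DC-SIGN) had 12 UMIs in 5 WT cells and 219 in 24 KO cells, 19.7-fold higher (11.1 to 38.8). At 3 or more UMIs it was found in 16 KO cells and 2 WT cells. Those 16 had medians of 29 Tcf4, 16 Siglech and 15 marker UMIs, against 26, 28 and 41 over all KO members. Of the 16, 2 also held 3 or more Lyz2 or C1q UMIs. Its 5 highest cells held 73.5% of the KO UMIs, the first of them 75. Cd209e (1 and 49 UMIs) and Mgl2 (10 and 41) had more UMIs in KO too, in 7 and 12 KO cells. With possible doublets left out, Cd209a stayed at a log2 ratio of 4.18, and it was at 2.83 when up to 2 microglial UMIs were allowed, against 4.25. The same allowance took Cd209e from 5.16 to 2.32 and Mgl2 from 2.09 to 0.78, under 2-fold. Higher KO values of measured cDC2 markers were also found in other populations. The cDC2 marker list had median log2 ratios of 2.09 here (5 measured genes), 1.66 in T cells (2) and 1.01 in macrophages and monocytes (4). In cDC2, microglia and cDC1 the medians were 0.61 (5), 0.37 (3) and 0.06 (3). These medians rest on different numbers of genes, so their sizes cannot be ranked. Cells counted as cDC2 numbered 55 of 5264 in WT and 88 of 2810 in KO. The part of free cDC2 RNA in the member values was not tested. Cd24a (64 and 154 UMIs) and the zinc finger factor Klf4 (133 and 237), from the conventional dendritic cell list, had ratios of 1.37 and 0.94, and Flt3, the growth factor receptor of all dendritic cells, had 154 and 156 UMIs.

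Genes of cDC1 had more UMIs in WT. Clec9a (57 and 8 UMIs) was spread over 25 WT and 7 KO cells, while Xcr1 (69 and 13) and Itgae (53 and 14) were found in 3 WT cells each and in 2 and 5 KO cells. At the 5% mitochondrial limit Xcr1 was at -0.49 and Itgae at -0.78, both under 2-fold. Cst3, the protease inhibitor cystatin C, had 2822 and 904 UMIs, with 84.1% of the WT count in 5 cells. Its log2 ratio of -1.53 became 0.19 with possible doublets left out.

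Secreted factors were few. Of 26 listed cytokines and chemokines 8 were measured, with a median of -0.75. Ccl4, a chemokine that attracts T cells and NK cells, was the most abundant, with 2472 UMIs in 58 WT cells (median 6.5, highest 221) and 1055 in 48 KO cells (median 3, highest 136), 2.17-fold lower in KO (2.02 to 2.33). The same direction was seen for Ccl3 (247 and 127, log2 -0.84) and Tnf (102 and 40, 2.36-fold, 1.62 to 3.49), each in at most 31 WT cells. With every cell weighted alike Tnf was at -0.89, and at the 5% mitochondrial limit Ccl4 was at -0.93, both under 2-fold. Il12a, a subunit of interleukin 12, had 21 UMIs in 12 WT cells and 48 in 24 KO cells, 2.47-fold higher (1.45 to 4.34); its log2 ratio of 1.29 was 0.91 with up to 2 microglial UMIs allowed. Ccl24 had 2 and 119 UMIs, of which 110 lay in 1 of the KO cells with macrophage RNA.

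Surface regulators differed gene by gene. Of 8 measured costimulatory and checkpoint ligands, galectin 9 (Lgals9) had 91 UMIs in 38 WT cells and 14 in 11 KO cells, 6.01-fold lower (3.41 to 11.4), and the inhibitory receptor gene Cd200r1 19 and 52, 2.96-fold higher (1.72 to 5.30). With up to 2 microglial UMIs allowed, the log2 ratio of Cd200r1 went from 1.54 to 0.66, under 2-fold. Among 19 measured inhibitory and ITAM-linked receptors the median was 0.11. The inhibitory Fc receptor Fcgr2b had 15 UMIs in 9 WT cells and 83 in 31 KO cells, 5.98-fold higher (3.43 to 11.2), of which 27 lay in 1 KO cell; its log2 ratio of 2.54 became 1.81 with possible doublets left out. The signalling adaptors Tyrobp (1882 and 1259) and Fcer1g (687 and 453) and the checkpoint receptor Lag3 (219 and 103) lay between -0.97 and -0.47. Homing receptors had a median of 0.29 over 13 genes, and the chemokine receptor gene Cxcr4 had 99 and 123 UMIs. Selplg, which encodes a selectin ligand, had 582 and 821 UMIs.

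Lymphoid-linked genes, which plasmacytoid cells share with B cell precursors, split. The immunoglobulin light chain genes were lower in KO: Igkc had 351 UMIs in 38 WT cells (highest 28) and 42 in 12 KO cells (highest 10), 7.73-fold lower (5.60 to 10.9), Iglc2 95 and 12, and Iglc3 441 and 140. Igkc was also found in 13.2% of WT and 0.809% of KO T cells, at 1441 and 1.78 CPM, and the part of free or B-lineage RNA in the member values was not tested; the 8 B and plasma cell markers summed to 16 and 19 UMIs in the members. Ighm had 889 and 993 UMIs. Dntt, the terminal transferase of lymphoid precursors, went the other way, with 92 UMIs in 29 WT cells and 212 in 42 KO cells, 2.49-fold higher (1.94 to 3.22), and was at 0.069 CPM or less in T cells of both untreated libraries. Its log2 ratio of 1.31 was 1.32 with possible doublets left out, but 0.43 at the 5% mitochondrial limit and 0.94 when up to 2 microglial UMIs were allowed, both under 2-fold.

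Housekeeping programmes showed small differences. Over all genes, 3.48% were at least 2-fold lower in KO and 3.0% at least 2-fold higher. No measured gene passed 2-fold among 27 of the secretory pathway and unfolded protein response (median 0.09; Hspa5 966 and 1003 UMIs, Xbp1 387 and 380), 33 of oxidative phosphorylation (-0.22), 21 of stress and immediate early genes (0.23) and 5 of the cell cycle (0.15). Among 13 survival and death genes only the pro-apoptotic Bcl2l11 (BIM) did, with 64 UMIs in 33 WT and 139 in 46 KO cells, 2.35-fold higher (1.73 to 3.21); its log2 ratio of 1.22 was 0.15 at the 5% mitochondrial limit. In 15 glycolysis and hypoxia genes only Vegfa did, with 19 and 43 UMIs; its log2 ratio of 1.27 was 0.79 with up to 2 microglial UMIs allowed.

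**Figure D5:**
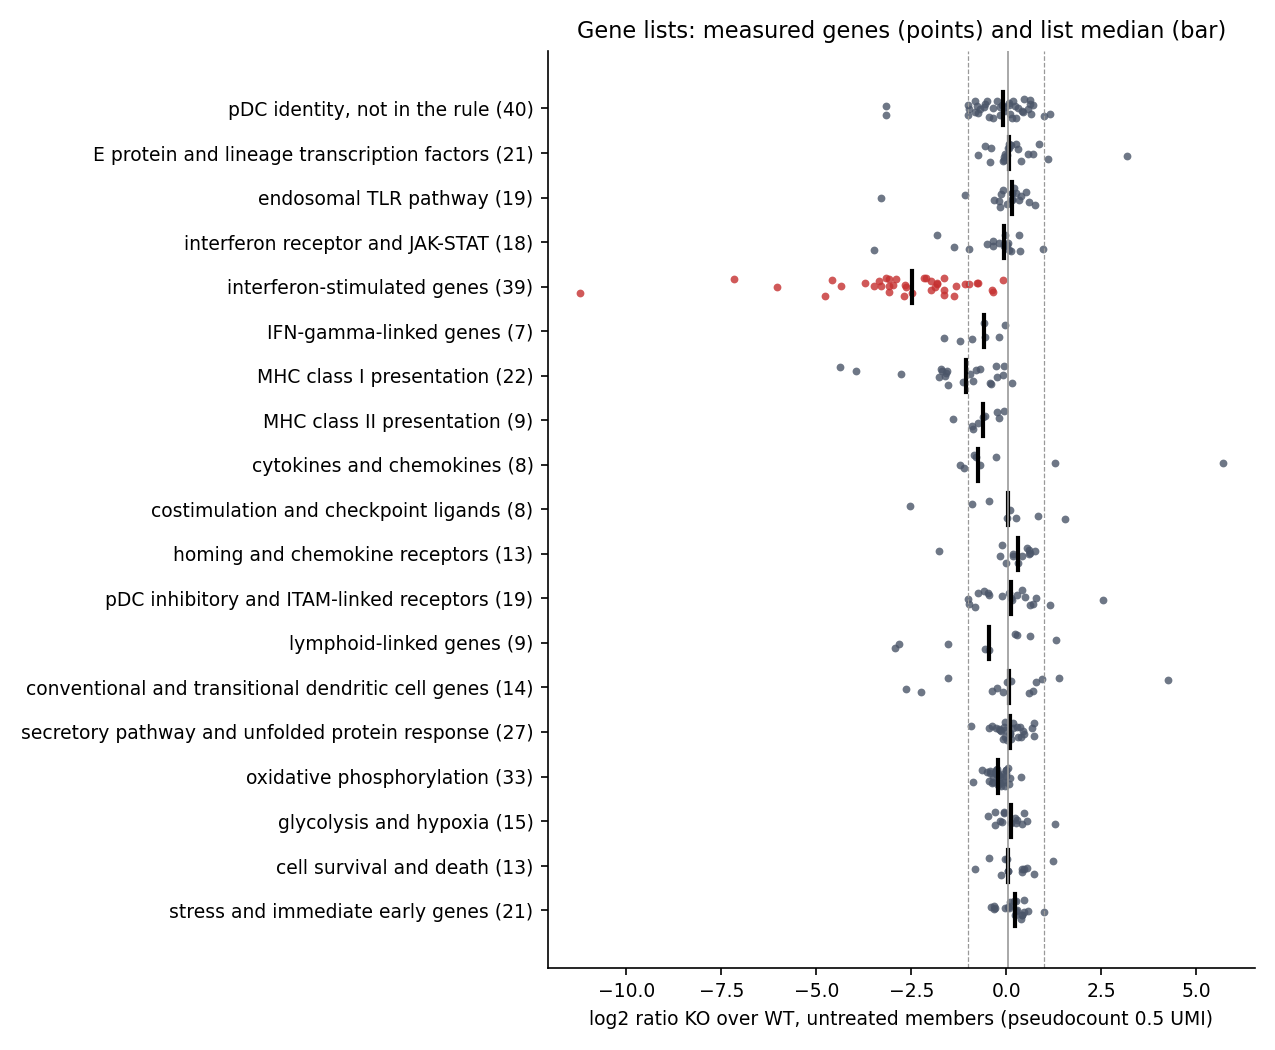
Log2 ratio of KO over WT in untreated members (horizontal) for each measured gene (points) of 19 gene lists, with the list median (black bar), the median over all genes (grey line, 0.05) and a 2-fold difference (dashed lines). The interferon-stimulated list has a median of -2.48 and the MHC class I list -1.05, while the identity list lies at -0.09.

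Beyond the lists, the 3 lowest ratios belonged to genes found in at most 18 of 66 WT cells. Sct (secretin) had 93 UMIs in 10 WT cells, 50 of them in 1 cell, and 1 UMI in KO, 86.1-fold lower (15.1 to 3435). Pgam2, a muscle-type glycolytic enzyme, had 80 UMIs in 18 WT cells and 1 in KO, and the lipocalin Apod 100 in 16 cells and 2. Kdr, the VEGF receptor 2, had 89 UMIs in 24 WT cells and 10 in 4 KO cells, 8.24-fold lower (4.28 to 17.8). Rnf213 (98 UMIs in 39 WT cells and 12 in 6 KO cells) and Ube2l6, the enzyme that conjugates ISG15 (63 and 8), were 7.56-fold and 7.29-fold lower, followed by Dck, Hsd11b1 and Nt5c3 between 5.17-fold and 6.79-fold. Ifitm1 had 265 and 46 UMIs, 94.3% of the WT count in 5 cells, and its log2 ratio of -2.40 became 0.41 when at least 2 Siglech and 3 marker UMIs were required.

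Outside the gene lists, the highest ratio belonged to Mid1, a ubiquitin ligase. It had 9 UMIs in 6 WT cells and 236 in 57 of 63 KO cells (median 3, highest 24), 28.3-fold higher (14.7 to 62.7). The same direction was measured in the other populations, with log2 ratios of 4.75 here, 5.60 in T cells and 4.21 in microglia; the differences between populations were not tested. Xist had 0 UMIs and the Y-linked Ddx3y was detected in the members of all 4 libraries. Socs2, an inhibitor of cytokine signalling, had 12 and 77 UMIs (6.93-fold higher, 3.75 to 14), the vitamin D receptor Vdr 11 and 55 (5.40-fold), Serinc5 18 and 88 (5.28-fold) and the glucocorticoid receptor co-chaperone Fkbp5 24 UMIs in 22 cells and 113 in 41 cells (5.09-fold, 3.25 to 8.27). Arhgap6 and Gcnt2 were 4.72-fold and 3.90-fold higher. Tgfbi (20 and 113) and the metallothionein Mt1 (14 and 62) had 91.2% and 80.6% of their KO UMIs in 5 cells.

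Interferon-stimulated genes were also lower in KO in the other immune cells of the same libraries, each defined by marker genes. Over the 38 listed genes that reached 50 UMIs in every population, the median log2 ratio was -2.32 in plasmacytoid cells, -2.06 in cDC1, -2.58 in cDC2, -2.29 in macrophages and monocytes, -1.90 in microglia and -1.38 in T cells; the differences were not tested. The WT level was under that of the other dendritic cells and of macrophages and monocytes, and above that of microglia and T cells, with the differences not tested: the list took a median of 1.54% of UMIs per plasmacytoid cell, 2.09% per cDC1, 2.13% per cDC2 and 2.69% per macrophage or monocyte, but 1.29% per microglial cell and 0.886% per T cell, while the KO medians ran from 0.352% to 0.504%. Isg15 in WT was at 448 CPM in plasmacytoid cells and 917, 1049 and 2057 CPM in cDC1, cDC2 and macrophages. Set against cDC1, cDC2 and macrophages, H2-Q7 stood the other way, at 1005 CPM in WT plasmacytoid cells against 277, 162 and 401 CPM. Its log2 ratio was -4.39 against -1.34, -1.71 and -2.04. Values in T cells and microglia are not given here, and single values of Q region genes are uncertain.

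After anti-PD1 the rule found 6 of 9464 WT cells (0.0634%, 0.0233% to 0.138%) and 8 of 8476 KO cells (0.0944%, 0.0408% to 0.186%). Lyz2 at 5 or more UMIs or C1q at 3 or more was present in 3 of the 6 and 5 of the 8, and the macrophage list took 5537 and 12001 UMIs, against 322 and 1604 in the much larger untreated sets. Without possible doublets 3 cells of each genotype remained, so the values that follow are descriptions of few and mixed barcodes. The interferon-stimulated list took 0.490% to 4.62% of UMIs in WT cells (median 2.23%) and 0.178% to 0.837% in KO cells (median 0.478%), and 1 WT cell lay within the KO range. Ifi27l2a had 110 UMIs in 5 of 6 WT cells and 0 in KO, Isg15 23 and 3, Irf7 46 and 2, Ly6a 273 and 7, and Ly6c2 273 and 2. Ccl4 had 294 and 512 UMIs, and Mid1 1 and 23. The libraries also differed in Cell Ranger version and in the sort from the untreated pair, and no contrast of treated with untreated members was made.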

How the data were processed

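Single-cell 5' libraries of sorted CD45.2-positive cells were analysed from the deposited matrices, which hold raw UMI counts per gene and barcode as the authors made them. Per the file headers, the untreated matrices came from Cell Ranger 3.1.0 and the anti-PD1 matrices from Cell Ranger 7.2.0. The builds mm10 and GRCm38 are listed per the submitters' processing notes; settings for introns and cell calling are not given in the sources used here. The libraries held 6662 (untreated WT), 3705 (untreated KO), 9530 (anti-PD1 WT) and 8764 (anti-PD1 KO) barcodes with 48270410, 32410040, 94732545 and 54559749 UMIs. The 30406 genes shared by all 4 matrices were kept. Untreated members and anti-PD1 members were never compared with each other.

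Member cells were found by the stated rule and their UMIs summed per library. Ratios used CPM of that sum, a pseudocount of 0.5 UMI and genes whose WT and KO sums together reached 50 UMIs; "called" means at least 2-fold. Intervals are exact Poisson or Clopper-Pearson at 95%, and PCR and capture effects lie outside them. For gene ratios, the spread between member cells lies outside them too. No test between groups was run, since each group held 1 library. No doublet caller was run; an alternative left out possible doublets by depth and by markers of other cells. The members and gene lists were chosen with earlier results of these data known. The genes named were those of the rule and of the identity list, Ifnar1 and Ifnar2, up to 4 genes per list with the largest ratio (10 for interferon-stimulated genes), and the 10 highest and 10 lowest outside the lists; other genes named as list examples were chosen after their values were seen. Alternatives changed cell filters, the member rule, the UMI minimum, scaling (TMM and DESeq2 size factors) and weighting; 2 of them (microglial UMIs allowed, a depth minimum of 2000 UMIs) were added after seeing the data. The calculations were tested on simulated data. Software was Python 3.11.15, numpy 2.4.6, scipy 1.17.1, pandas 2.3.3, matplotlib 3.10.9, R 4.3.3, edgeR 4.0.16 and DESeq2 1.42.0. Promoters are RefSeq windows of GRCm38.p6. Some genes are not reported here.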

Additional observations from a re-analysis of the deposited data

Results flagged for a closer look

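Tgfbi, which encodes a secreted matrix protein, had opposite ratios in the 2 pairs. Its log2 ratio of KO over WT was 2.58 in untreated members (20 and 113 UMIs) and -1.01 in anti-PD1 members (47 and 36 UMIs). The difference was not tested. Of the 113 untreated KO UMIs, 68 lay in 1 cell, and all 47 anti-PD1 WT UMIs lay in 1 of 6 cells.

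Barcodes outside the membership rule also carried plasmacytoid genes. Over the mitochondrial limit, 7 untreated WT and 16 untreated KO barcodes otherwise met the rule, with medians of 2352 and 1864.5 UMIs. With 1 or 2 microglial UMIs, 15 WT and 9 KO barcodes otherwise met it; they had medians of 27 and 37 Siglech UMIs and 29 and 22 Tcf4 UMIs.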

How the results depend on the processing

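No paired analysis was possible because each group held 1 library. The share of members turned under 500 genes and 5% mitochondrial UMIs (log2 -1.17) and stayed higher in KO under the other cell settings tried (0.74 to 1.09). Genes at least 2-fold lower numbered 235 under that filter (10 KO cells), 486 at a minimum of 10 UMIs, 1812 with none, 81 at 100 UMIs and 17 after thinning to 1000 UMIs; those higher numbered 654, 1995 and 44 at these minimums, 213 with cells weighted alike and 9 after thinning. The interferon-stimulated median was -1.62 under the stricter filter. That filter gave list medians of -0.92 (identity), 0.46 (MHC class II), -0.34 (unfolded protein response) and -1.77 (lymphoid). Requiring 2 Siglech and 3 marker UMIs gave -0.13 (MHC class II), -0.61 (lymphoid) and 0.66 (conventional dendritic cell). Without possible doublets the values were -0.32 (MHC class II) and 0.62 (conventional dendritic cell). Allowing microglial UMIs gave -0.089 (cytokines), weighting cells alike 0.61 (costimulation) and -0.58 (lymphoid), and thinning -0.58 (inhibitory receptors), -0.029 (lymphoid) and -0.78 (conventional dendritic cell). Of single genes, Ifitm1 turned to 0.41 under the stricter rule and Cst3 to 0.19 without possible doublets; the causes were not tested. In all, 268 of 283 list medians and 1518 of 1663 gene values stayed within the counting interval of the reported value. The gene total includes settings that could not move a single ratio: other UMI minimums, and leaving out shared barcodes, which held no member. TMM and DESeq2 factors only shifted all genes alike. Of the 143 gene values that moved beyond the interval, 74 did so under the stricter cell filter, where 100 genes were measured. There, some genes under 2-fold also changed sign, among them Tcf4 from 0.32 to -0.36, Paqr5 from 0.41 to -1.17 and Fcrla from 0.22 to -1.10. Genes with few UMIs, and every anti-PD1 value, are limited by depth and cell number.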
